A study of Ovis aries with 12 samples.

Results

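The rows of the sheep gene table that stand for cytosolic ribosomal proteins were examined: 76 of 18340 rows, where a row is one annotated gene. A row was taken when its gene name begins with RPL or RPS and a digit, or with RPLP or RPSA, or when its description reads 40S or 60S ribosomal protein. Of 92 such rows, 9 were set aside because they describe mitochondrial proteins or kinases, and 7 more because their mean level over 12 libraries was below 1 FPKM (fragments scaled to transcript length and to the depth of the library). The 76 rows that remained comprise 25 with a gene name and 51 without one. The unnamed rows carry only an Ensembl identifier and a description, such as 60S ribosomal protein L9. They are called copies below for brevity, although the 10 of them with several exons include rows that may be the main gene of their protein. The rows were chosen by name, description and mean FPKM, so the mean level is given as a description. The copies annotated L9 and L7 were singled out with results of these data already known, so their differences between times are a description too.

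The cells were oviduct epithelial cells of sheep, scraped from the ampulla after trypsin digestion. All of them were kept without serum and phenol red for 12 h and then received oestradiol (E2, the main oestrogen) at 1e-08 M for 0, 1.5, 3.5 or 5.5 h. The 0 h libraries are the control, and every time has 3 RNA-seq libraries, numbered 1 to 3. Libraries held between 48490974 and 79387070 counts assigned to genes. The labels do not say whether the numbers stand for animals, cultures or days, so p-values measure the spread between these libraries, which may be technical.

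The ribosome is built from ribosomal RNA and a fixed set of proteins, those of the large 60S subunit (names in L, with a stalk of P proteins) and those of the small 40S subunit (names in S). Most of these proteins are needed in equal number, and mammals make most ribosomal proteins from a single gene with introns. Mammalian genomes also hold many copies of these genes that arose when a spliced mRNA was written back into the DNA. Such copies have no introns, most are thought to make no protein, and their sequence can be close enough to the parent gene that short reads match both.

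The labelled cell type was checked first. Keratin 8 (KRT8), an epithelial cytokeratin, lay between 5529 and 9097 CPM (counts scaled to the depth of the library) in the 12 libraries. PAX8, a transcription factor of the oviduct's secretory cells, lay between 167 and 293 CPM. The oviduct glycoprotein OVGP1 stayed between 0.241 and 2.74 CPM. FOXJ1, the regulator of motile cilia, did not pass 0.250 CPM and was at 0 in 8 libraries. Of the other ciliated cell markers, DNAH5 and CCDC39 did not pass 0.163 and 0.448 CPM, whereas TPPP3 lay between 10.3 and 37.3 CPM. TPPP3 differed from 0 h by -0.14, -0.53 and -0.80 on the log2 scale at 1.5, 3.5 and 5.5 h, and was not called by edgeR. The summed smooth muscle markers (4 of 4 matched) ranged from 14.3 to 64.7 CPM at 0 h, from 54.9 to 160 CPM at 1.5 h, from 16.1 to 111 CPM at 3.5 h and from 21.4 to 109 CPM at 5.5 h. Over all libraries ACTA2 and CNN1 reached 39.4 and 117 CPM, whereas MYH11 and DES did not pass 5.08 and 0.188 CPM. The summed fibroblast markers (5 of 6 matched) ranged from 16.9 to 82.2 CPM at 0 h, from 76.6 to 112 CPM at 1.5 h, from 15.7 to 82.1 CPM at 3.5 h and from 27.8 to 74.2 CPM at 5.5 h. COL1A1, COL3A1 and COL1A2 reached 51.7, 41.5 and 17.9 CPM, whereas LUM and PDGFRA did not pass 3.37 and 2.42 CPM. The 3 fibroblast markers that could be tested differed by 0.50 to 0.72 on the log2 scale at 1.5 h, with none called by edgeR. The 2 smooth muscle markers tested differed by 1.29 and 1.70 at 1.5 h, both by 0.68 at 3.5 h, and by 0.60 and 0.71 at 5.5 h. None was called by edgeR, and 1 had an unadjusted p under 0.05 at 1.5 h, where 2.39% of all rows did. The summed endothelial markers (3 of 3 matched) ranged from 65.4 to 218 CPM over all libraries, from 98.3 to 156 CPM at 0 h and from 65.4 to 206 CPM at 1.5 h. This sum comes from VWF (44.9 to 137 CPM) and CDH5 (20.5 to 80.3 CPM), while PECAM1 did not pass 0.536 CPM and was at 0 in 5 libraries. The summed immune markers (4 of 4 matched) ranged from 18.0 to 30.6 CPM over all libraries. CD14 and CD68 reached 19.1 and 20.7 CPM, whereas PTPRC and CD3E did not pass 0.524 and 0.0723 CPM. Of the 2 immune markers tested, 1 was lower at an unadjusted p under 0.05 in edgeR at 3.5 h and 1 at 5.5 h. Their log2 differences were -0.65 and -0.66, against 0.12 and 0.07 for the other marker, and none was called. Such a p was found, in either direction, for 2.16% and 2.1% of all rows. The part of these cells in the results below was not tested. In bulk RNA fewer cells of a type and less RNA per cell cannot be told apart.

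Named genes and copies, as the rule defines them, differed in structure as well as in level. The rule leaves out 37 other unnamed rows whose description is worded differently. Of these, 35 have several exons, and the 37 range from 2.56 to 2421 FPKM. The contrast is thus partly set by the rule and is given as a description. All 25 named genes have several exons in the authors' transcript table, whereas 41 of the 51 copies (80.4%) have 1 exon, against 8.89% of the 12025 rows with a mean of at least 1 FPKM. The transcripts of these 41 copies measure 252 to 864 bases. Each of the 76 rows has 1 transcript. In 4 of the 10 copies with several exons, the gene span exceeds the transcript by fewer than 300 bases. The word pseudogene stands in the description of 11 copies. For 41 copies the NCBI gene number in the description was found in the RefSeq table (assembly ARS-UI_Ramb_v3.0), which lists 36 of them as protein-coding and 5 as pseudogenes. Of the 11 rows that the authors' table calls pseudogenes, RefSeq lists 7 as protein-coding. The copies lie on 22 chromosomes. The 76 rows stand for 48 proteins, and for 4 of these both a named and an unnamed row were present. Large subunit proteins account for 51 rows and small subunit proteins for 24. The remaining row is RPS19BP1, a protein that binds S19 and is not part of the ribosome, which the rule takes in because of its name.

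In level per length, the named genes had a median of 778 FPKM and a range of 43.0 to 2121 FPKM. Copies with 1 exon had a median of 45.5 FPKM, from 1.26 to 709 FPKM, and copies with several exons a median of 65.5 FPKM, from 2.91 to 1320 FPKM. The median of all 12025 rows was 12.7 FPKM. The rows just inside the threshold were an S13-like row on chromosome 7 (ENSOARG00000001079, 1.26 FPKM) and an L10a row on chromosome 5 (ENSOARG00000016758, 1.71 FPKM). Those just outside were an L7a pseudogene (0.466 FPKM) and an L10a-like row (0.658 FPKM).

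**Figure D1:**
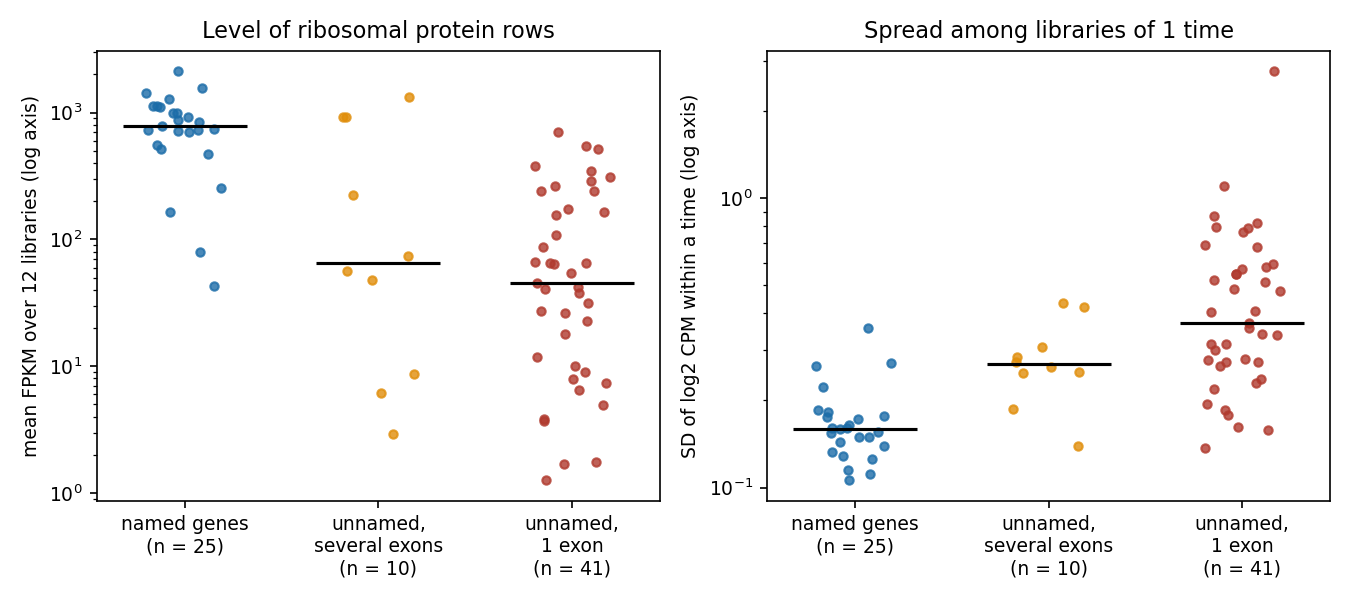
Left, mean FPKM over 12 libraries of each of the 76 ribosomal protein rows on a log axis. Right, the standard deviation of log2 CPM among the libraries of one time, pooled over the 4 times, on a log axis. Points are rows and black lines are class medians (778, 65.5 and 45.5 FPKM on the left, 0.16, 0.27 and 0.37 on the right), so copies with 1 exon sit lowest in level and highest in spread.

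Among the large subunit genes with a name, RPL23A, whose protein sits at the exit of the nascent chain, had the highest mean level of all members at 2121 FPKM. RPL11, which carries 5S RNA into the subunit together with RPL5 and can bind MDM2, had 1126 FPKM. RPL18, RPL8 and RPL10 lay between 778 and 986 FPKM. RPL22, an RNA-binding protein, had 723 FPKM. The paralogue RPL26L1 had the lowest mean of the named genes, 43.0 FPKM, while the copy with several exons that is described as L26 (ENSOARG00000001198) had 924 FPKM. RPL36A is present only as the read-through symbol RPL36A-HNRNPH2, at 514 FPKM.

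Among the small subunit genes, RPS2 had 1282 FPKM. RPS27A, which is made as a fusion with ubiquitin, had 1120.3 FPKM, and RPS19, a gene mutated in Diamond-Blackfan anaemia in people, had 1112 FPKM. RPSA, also known as the laminin receptor, and RPS3, which lines the entry of the mRNA channel, had 873 and 747 FPKM. RPS21 had 253 FPKM. RPS27L, a paralogue of RPS27 that is a p53 target in human cells, had 475 FPKM, and RPS19BP1 had 79.6 FPKM.

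The highest copies reached the level of the named genes. Those annotated L35a (ENSOARG00000020259, 4 exons, 1320 FPKM), L26 (924 FPKM) and L37 (ENSOARG00000004877, 2 exons, 921 FPKM) have several exons. The next were 1-exon rows, an L37a copy on chromosome 2 at 709 FPKM (ENSOARG00000019826) and an S3a copy on chromosome 3 at 542 FPKM (ENSOARG00000020231).

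For many copies the row with introns lies outside the rule, since 37 further rows are described as ribosomal protein without the words 40S or 60S and have no name in the authors' table. By their NCBI gene numbers, RefSeq gives them symbols. Among them, the stalk genes RPLP1, RPLP0 and RPLP2, which recruit elongation factors, had 2421, 1463 and 127 FPKM. RPS6, a substrate of S6 kinase, had 795 FPKM, RPL3 had 945 FPKM, RPL5 had 415 FPKM, RPL7 had 989 FPKM and RPL9 had 975 FPKM. The paralogues RPL36AL, RPL7L1 and RPL22L1 had 357, 108 and 77.9 FPKM. For S15a, the row with several exons (RPS15A, ENSOARG00000010484) had 2.56 FPKM, whereas 3 of the 1-exon S15a copies had 164, 309 and 346 FPKM. RPL3L, RPL10L, RPL39, RPL39L, RPS4Y1 and RPS27 were not analysed here.

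The comparisons ask what differed from 0 h after 1.5, 3.5 and 5.5 h with oestradiol. No library without oestradiol is listed at these later times, so oestradiol and time in culture cannot be told apart. The 3 comparisons share the same 0 h libraries, so their values are given side by side and are not independent of each other. Ribosomal protein rows took about the same part of the RNA at each time. The 76 rows held 1.70% ± 0.136 of all gene counts at 0 h (SD, n = 3), 1.74% ± 0.222 at 1.5 h, 1.67% ± 0.156 at 3.5 h and 1.75% ± 0.213 at 5.5 h. Copies made up 24.8% ± 1.29 of the counts in these rows at 0 h. Their part was 24.4% ± 0.647 at 1.5 h and 25.1% ± 1.97 at 3.5 h, and it was 25.3% ± 2.29 at 5.5 h. By two-sided exact permutation tests of 3 against 3 libraries, which cannot go below 0.1, the 6 differences had p between 0.7 and 0.9, and 0.9 after Benjamini-Hochberg adjustment over the 6. These tests take no account of the library number, so the spread includes differences between numbers. Because their p cannot go below 0.1, these tests could not call a difference of any size, and absence of a difference cannot be concluded from them. The p between 0.7 and 0.9 show only that the differences lay well within those of relabelled libraries.

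Within these shares, the libraries numbered 3 held more from copies. Copies made up 26.3%, 25.1%, 27.4% and 27.9% of ribosomal protein counts in the number 3 libraries of 0, 1.5, 3.5 and 5.5 h. In the 8 libraries numbered 1 and 2 the copy share was between 23.6% and 24.4%. The copies with 1 exon alone held 16.5% to 17.7% in number 3 and 14.8% to 15.9% in the other 8. Number 3 thus stood apart from the other 8 libraries, while numbers 1 and 2 overlap, as does every time with 0 h. In the same 4 libraries the mitochondrially encoded genes held 5.47% to 6.04% of counts, against 4.83% to 5.003% in the other 8. The share of counts in ribosomal protein rows was also highest in number 3 at each time, at 1.83% to 1.97% against 1.49% to 1.85%. The part of the mitochondrial share in the copy share was not tested.

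Named genes lay close to their 0 h level at every time. Their median log2 difference from 0 h was 0.07 at 1.5 h, -0.01 at 3.5 h and 0.04 at 5.5 h, beside a median of 0.00 at 1.5 and 3.5 h and 0.01 at 5.5 h over all 12025 rows. The range over the 25 genes was -0.07 to 0.26 at 1.5 h, -0.15 to 0.22 at 3.5 h and -0.11 to 0.19 at 5.5 h. Above 0 lay 20, 12 and 18 of the 25 genes at these times, where 50.4%, 51.1% and 52.2% of all rows did. The copies had medians of 0.06, 0.17 and 0.05, with ranges of -0.26 to 0.92 at 1.5 h, -0.61 to 1.98 at 3.5 h and -0.86 to 2.46 at 5.5 h. Without library 3 of the same time, the copy median was -0.0065 at 3.5 h and -0.089 at 5.5 h. The 37 rows with RefSeq symbols outside the rule had medians of 0.05, 0.02 and 0.03.

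**Figure D2:**
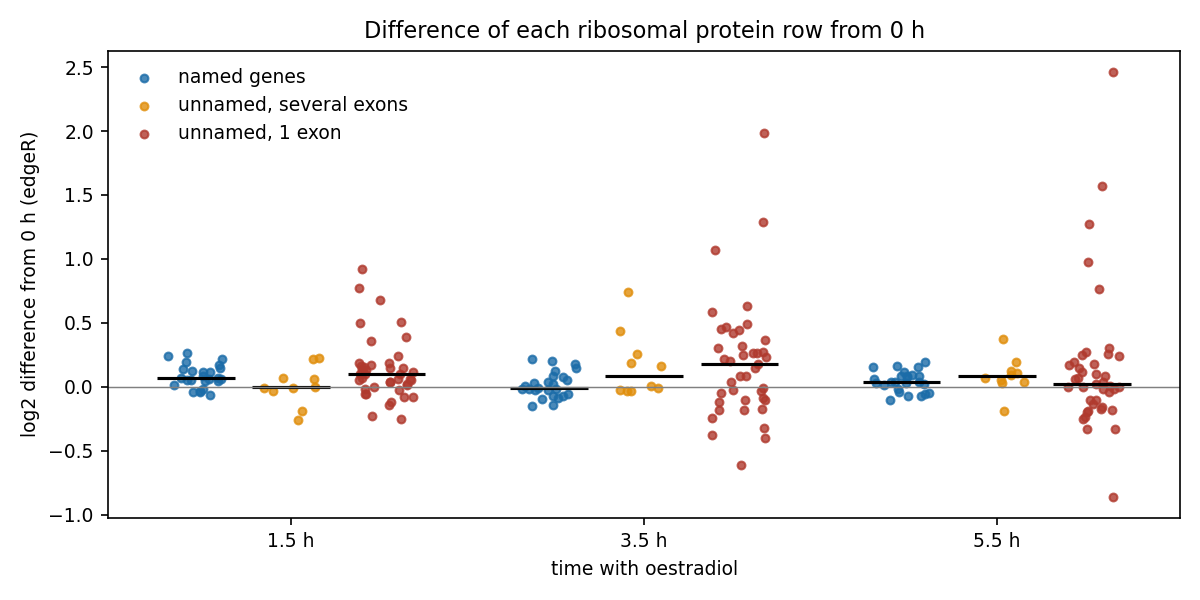
Log2 difference from 0 h (vertical axis, edgeR fit with TMM scaling) of each of the 76 ribosomal protein rows at 1.5, 3.5 and 5.5 h, by class. Points are rows and black lines class medians. Named genes stay between -0.15 and 0.26, while copies reach from -0.86 to 2.46.

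No row passed edgeR's quasi-likelihood test at a Benjamini-Hochberg adjusted p under 0.05, neither among the 76 nor among all 12025 rows, at any time (0% called in each comparison). At an unadjusted p under 0.05 edgeR gave 2 of the 76 rows at 1.5 h, 4 at 3.5 h and 4 at 5.5 h, where 2.39%, 2.16% and 2.1% of all rows did so. Blocked on replicate number, edgeR gave 3, 9 and 6 of the 76 an unadjusted p under 0.05, against 9.81%, 6.5% and 6.51% of all rows. All 9 at 3.5 h and all 6 at 5.5 h were copies. All 3 same-numbered pairs were higher than 0 h in 7, 21 and 8 of the 76 rows, against 14.3%, 16.6% and 15.9% of all rows, and lower in 3, 9 and 7, against 13.7%, 16.2% and 15.1%. Of the 21 higher rows at 3.5 h, 17 were copies. In 6 of the 76 rows all 3 pairs were higher at one time and lower at another, against 2.3% of all rows. DESeq2 called 0, 2 and 2 of the 76 at these times, where it called 0.00832%, 0.0499% and 0.0582% of all rows. Both of its calls at 3.5 h and both at 5.5 h were the L9 copies ENSOARG00000020156 and ENSOARG00000001382. With the replicate number as a block, edgeR called none of the 76 in any comparison (0.00832%, 0% and 0% of all rows), and DESeq2 called 0, 1 and 3 (0.798%, 0.283% and 0.266% of all rows). The call that the block removed at 3.5 h was ENSOARG00000020156, and the one it added at 5.5 h was the L9 copy ENSOARG00000000241.

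At 1.5 h the named genes with the smallest p were RPL36A-HNRNPH2, with a log2 difference of 0.26 ± 0.11 (SE), RPS19BP1 with 0.24 ± 0.11 and RPS10 with 0.21 ± 0.12. In RPS19BP1 the libraries lay at 31.8, 31.8 and 32.2 CPM at 0 h and at 36.8, 36.5 and 39.6 CPM at 1.5 h. These groups do not overlap, and this is the only such row of the 76, where 8.32% of all rows have groups that do not overlap. The adjusted p of each of the 3 genes was 1.00 in edgeR. Among copies the smallest p at 1.5 h belonged to the L9 copy ENSOARG00000020156 (0.77 ± 0.49), the S13-like row ENSOARG00000001079 (0.92 ± 0.66) and an L34 pseudogene, ENSOARG00000002798 (0.50 ± 0.37), all with an adjusted p of 1.00 in edgeR.

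RPS19BP1 and RPL36A-HNRNPH2 kept the same sign later. RPS19BP1 differed from 0 h by 0.20 ± 0.11 at 3.5 h and 0.15 ± 0.11 at 5.5 h on the log2 scale, and RPL36A-HNRNPH2 by 0.22 ± 0.11 and 0.19 ± 0.11. At 3.5 h the third named gene by p was RPL23A (-0.15 ± 0.11). None of these passed edgeR's test, each with an adjusted p of 1.00.

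Rows annotated L9, a protein of the 60S subunit, showed the widest differences, and in opposite directions. There are 4 copies with 1 exon, beside RPL9 itself (ENSOARG00000011605, 6 exons). The highest copy is ENSOARG00000000241 on chromosome 6, bases 2581988 to 2582566, minus strand. ENSOARG00000020156 lies on chromosome 9, bases 28105544 to 28106122, plus strand, and ENSOARG00000001382 on chromosome 4, bases 110603406 to 110603984, plus strand. Each of these 3 transcripts is 579 bases long. The build of these coordinates is not given in the sources used here. The last, ENSOARG00000016008 on chromosome 3, is described as a pseudogene and has 576 bases.

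The chromosome 6 copy had 184, 165 and 210 CPM in 0 h libraries 1, 2 and 3, and 167, 166 and 245 CPM at 1.5 h. It had 124, 71.2 and 171 CPM at 3.5 h, and 149, 55.6 and 104 CPM at 5.5 h. It was thus lower than at 0 h in all 3 numbers at 3.5 and 5.5 h, and at 5.5 h the groups do not overlap. Its log2 difference was 0.05 ± 0.36 at 1.5 h, -0.61 ± 0.36 at 3.5 h and -0.86 ± 0.36 at 5.5 h, with adjusted p of 1.00 in edgeR. With the number as a block, DESeq2 gave the 5.5 h difference an adjusted p of 0.0147.

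The chromosome 9 copy lay higher at the later times. It had 8.92, 13.7 and 18.0 CPM at 0 h, 40.5, 14.3 and 14.5 CPM at 1.5 h, 35.9, 69.8 and 54.6 CPM at 3.5 h, and 35.2, 88.9 and 99.6 CPM at 5.5 h. At 1.5 h only library 1 stood above the 0 h libraries, and at 3.5 and 5.5 h all 3 did. The log2 differences were 0.77 ± 0.49, 1.98 ± 0.50 and 2.46 ± 0.51. The adjusted p was 1.00 at each time in edgeR, and 0.0398 at 3.5 h and 2.62e-04 at 5.5 h in DESeq2. With the number as a block, DESeq2 gave an adjusted p of 0.165 at 3.5 h, where the call was lost, and 0.0220 at 5.5 h.

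The chromosome 4 copy had 10.4, 12.7 and 13.8 CPM at 0 h and 9.53, 8.99 and 12.5 CPM at 1.5 h. It had 23.4, 26.7 and 27.4 CPM at 3.5 h and 21.1, 37.0 and 31.3 CPM at 5.5 h. The 0 h group does not overlap with either later group, while at 1.5 h each library lay below its same-numbered 0 h library. The log2 differences were -0.25 ± 0.21, 1.07 ± 0.21 and 1.28 ± 0.21. In edgeR the adjusted p was 1.00 at each time, and 0.062 at 5.5 h with the number as a block. In DESeq2 it was 0.00761 at 3.5 h and 2.00e-04 at 5.5 h, and with the block 7.41e-07 and 1.84e-10. Among the 4 times, edgeR called no row without the block (0% of all rows), and 3 of the 76 rows had an unadjusted p under 0.05, where 1.22% of all rows had one. With the block it called this row (adjusted p = 0.0325), the only one of the 76, where 0.0166% of all rows were called.

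The pseudogene row had 1.27 to 4.51 CPM over all libraries, and its differences were 0.15 ± 0.42, 0.59 ± 0.42 and 0.10 ± 0.42.

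Summed over the 4 copies, L9 was level. The sum was 214 ± 26.9 CPM at 0 h (SD, n = 3), 228 ± 42.1 at 1.5 h, 204 ± 47.0 at 3.5 h and 209 ± 27.8 at 5.5 h. In a fit with the rows of each protein summed, the log2 difference of the L9 sum was 0.09 ± 0.18, -0.07 ± 0.18 and -0.03 ± 0.18, with adjusted p of 1.00 in edgeR. The split between the copies was not level. The chromosome 6 copy made up 85.5% to 89.7% of the sum at 0 h, 76.0% to 89.4% at 1.5 h, 42.0% to 66.8% at 3.5 h and 30.4% to 71.9% at 5.5 h. The chromosome 9 copy made up 4.4% to 7.4% at 0 h, and 17.0% to 48.6% at 5.5 h. RPL9 itself, at 671 ± 55.6, 705 ± 92.6, 651 ± 82.9 and 687 ± 95.2 CPM, held most L9 counts and differed by 0.07, -0.04 and 0.03 on the log2 scale. How the authors' counting placed reads that match more than one of these rows is not stated by the labels or file headers, and its part in the split was not tested.

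**Figure D3:**
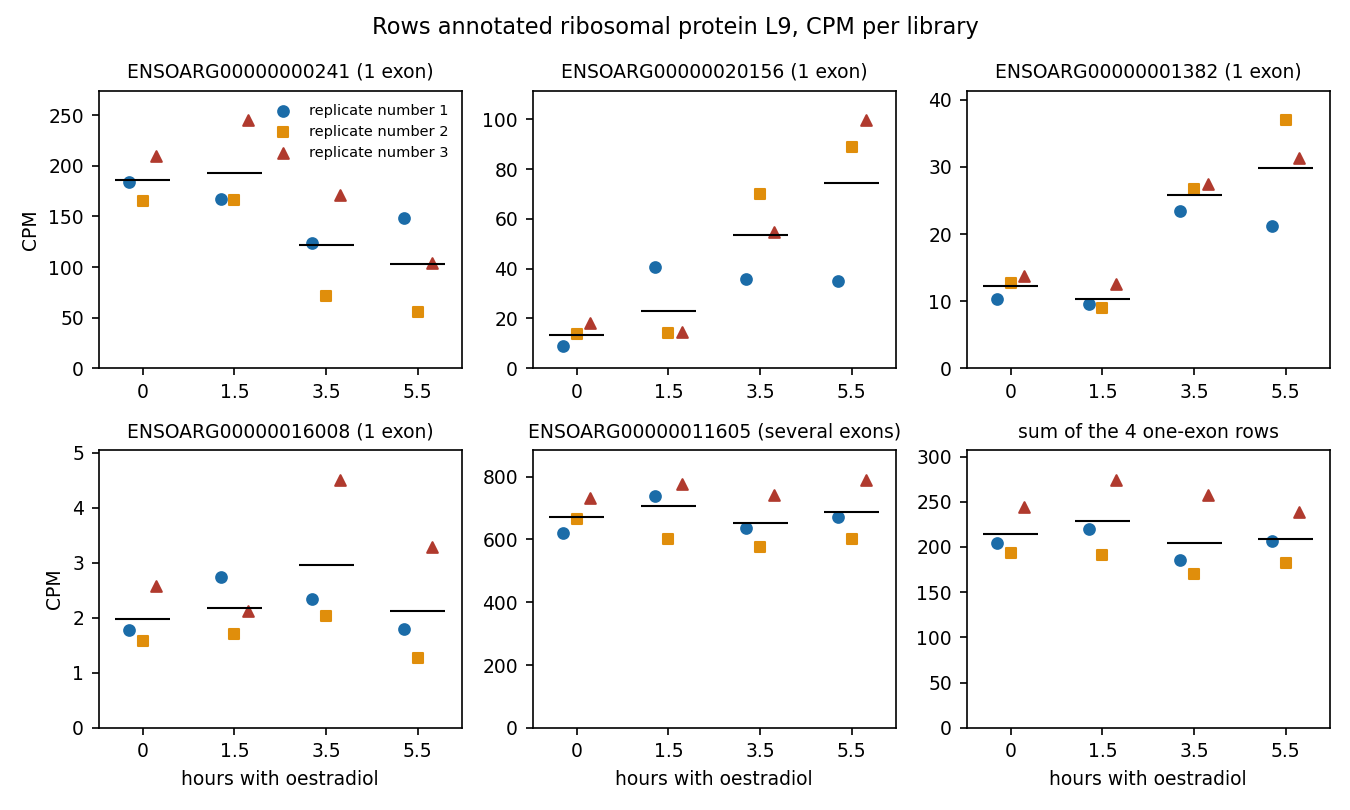
CPM (vertical axes, from 0, each with its own scale) of the 5 rows annotated L9 and of the sum of the 4 copies, by hours with oestradiol. Points are libraries, shapes and colours mark the replicate number and lines are means of 3 libraries. ENSOARG00000000241 has a mean of 103 CPM at 5.5 h, against 186 CPM at 0 h, while ENSOARG00000020156 and ENSOARG00000001382 are at 74.6 and 29.8 CPM, and the sum stays between 204 and 228 CPM.

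Copies annotated L7, another 60S protein, showed less. RPL7 itself (6 exons) had 793 ± 112, 809 ± 130, 828 ± 200 and 829 ± 181 CPM at 0, 1.5, 3.5 and 5.5 h. The L7 pseudogene on chromosome 26 (ENSOARG00000004114) had 67.4, 69.0 and 75.7 CPM at 0 h and 59.5, 59.6 and 50.04 CPM at 3.5 h, which do not overlap, and had 76.6 ± 17.0 CPM at 5.5 h. Its log2 differences were 0.10 ± 0.17, -0.33 ± 0.17 and 0.12 ± 0.17. The L7-like row with 2 exons on chromosome 3 (ENSOARG00000010153), which RefSeq lists as a pseudogene, had 5.10, 3.39 and 5.02 CPM at 0 h and 7.51, 6.12 and 8.99 CPM at 3.5 h. It was back at 4.53, 3.92 and 3.41 CPM at 5.5 h. Its differences were -0.26 ± 0.23, 0.74 ± 0.23 and -0.19 ± 0.23, with adjusted p of 1.00 in edgeR at each time. The L7-like row on chromosome 16 (ENSOARG00000004949) stayed between 0.732 and 3.26 CPM.

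Groups that do not overlap with 0 h were found for 7 of the 76 rows at 3.5 h and for 4 at 5.5 h, where 6.76% and 6.92% of all rows had them. At 3.5 h these were the L9 copies on chromosomes 9 and 4, both L7 copies described above with such groups, an L37a copy on chromosome 15 (ENSOARG00000017111), RPL36A-HNRNPH2 and RPS19BP1. At 5.5 h they were the 3 L9 copies of 579 bases and RPS19BP1. The S13-like row also had an unadjusted p under 0.05 at 5.5 h in edgeR (1.57 ± 0.66), from 13, 12 and 34 reads at 0 h and 40, 48 and 83 reads at 5.5 h.

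A difference of 1 or more on the log2 scale was seen in 0, 3 and 3 of the 76 rows at 1.5, 3.5 and 5.5 h, where 1.34%, 0.973% and 1.02% of all rows had one. The third such row at 3.5 h, beside the L9 copies, was an L21-like copy on chromosome 7 (ENSOARG00000000949). Its libraries were at 23.5, 8.29 and 13.4 CPM at 0 h and at 38.5, 16.9 and 55.1 CPM at 3.5 h, higher in each number but overlapping between the groups. Its log2 difference was 1.29 ± 0.57 at 3.5 h and 0.24 ± 0.56 at 5.5 h, with adjusted p of 1.00 in edgeR.

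Copies varied more among libraries of one time than named genes did. The median within-time SD of log2 CPM was 0.16 for the 25 named genes, 0.27 for the 10 copies with several exons, 0.37 for the 41 copies with 1 exon, 0.19 for the 37 rows outside the rule and 0.23 for all 12025 rows. Copies also had lower levels, and the part of this in their spread was not tested. The steadiest named gene was RPSA (SD 0.11), with 783, 825 and 866 CPM at 0 h and between 759 and 1002 CPM over all libraries. The most variable rows were an S15a copy (2.76), the L6 pseudogene on chromosome 17 (ENSOARG00000004648, 1.10) and a low S15a copy (ENSOARG00000004460, 0.87).

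S15a, a 40S protein, has 4 copies with 1 exon, and the copy ENSOARG00000018456 on chromosome 3 followed the replicate number and not the time. It had 106, 81.7 and 3.11 CPM in libraries 1, 2 and 3 at 0 h, 120, 120 and 4.16 CPM at 1.5 h, 49.9, 122 and 3.87 CPM at 3.5 h, and 120, 102 and 3.72 CPM at 5.5 h. All 4 libraries numbered 3 lay far below the other 8. Number 3 minus number 1 was -4.71 on the log2 scale, with an adjusted p of 5.10e-05 among the numbers in edgeR. The S15a copy ENSOARG00000018407, also on chromosome 3, lay at 155 to 195 CPM in the number 3 libraries and at 95.4 to 119 CPM in the others. The copy on chromosome 21 (ENSOARG00000015615) lay at 155 to 233 CPM and 115 to 150 CPM. Their sum with the remaining, low copy was 314 to 435 CPM, with no such gap: 327, 316 and 314 CPM at 0 h, and 369, 315 and 435 CPM at 5.5 h.

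**Figure D4:**
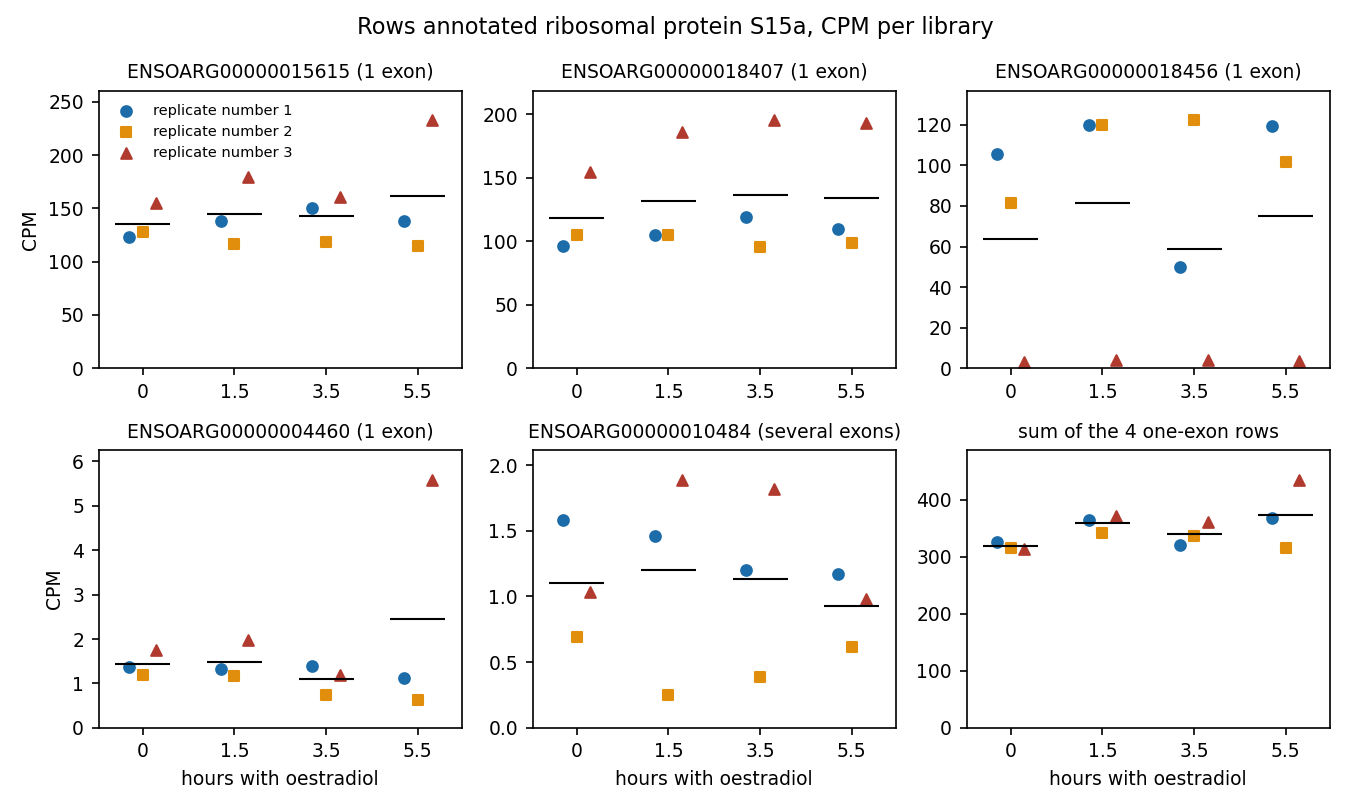
CPM (vertical axes, from 0, each with its own scale) of the 5 rows annotated S15a and of the sum of the 4 copies, by hours with oestradiol. Points are libraries, shapes and colours mark the replicate number and lines are means of 3 libraries. ENSOARG00000018456 is at 3.11 to 4.16 CPM in the number 3 libraries and at 49.9 to 122 CPM in the others, while the sum lies between 314 and 435 CPM.

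The S3a copy on chromosome 3 (ENSOARG00000020231) was higher in number 3. It lay at 662 to 756 CPM there and at 258 to 417 CPM in the other libraries (adjusted p = 2.01e-04 among the numbers in edgeR), whereas its log2 differences from 0 h were -0.08, -0.03 and 0.02 at the 3 times. RPS3A, the S3a row with 6 exons, went the other way, at 298 to 383 CPM in number 3 and 386 to 507 CPM in the others. The sum of these 2 rows ranged from 737 to 1117 CPM over all libraries. The S3a copy counts towards the copy share given above, and its part in that share was not tested. Among the numbers, edgeR called 38 of the 76 rows, 14 named genes and 24 copies, where 35.5% of all rows were called. RPS27A, RPL22, RPL11 and RPL10 were among the named genes called. RPL22 was higher in number 3 than in number 1 by 0.43 on the log2 scale. Other libraries differed without regard to number: the L6 pseudogene had 95.7, 20.6 and 13.2 CPM at 0 h, and 32.7, 88.7 and 61.6 CPM at 1.5 h.

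The spread of single rows was set beside that of the sum of rows annotated to one protein. For 22 proteins with 2 or more rows, which hold 61 rows with those outside the rule, 46 rows had a larger within-time SD than the sum of their protein. The median SD of the rows was above that of the sum in 20 of the 22 proteins. L17 and L37 were the exceptions. Among the 3 rows described as L17, ENSOARG00000003945 (7 exons) has the RefSeq symbol C23H18orf32, which is not that of a ribosomal protein. Adding rows that vary separately lowers the SD by averaging alone, so these counts are a description. A sum led by 1 abundant row takes most of its spread from that row, and in 15 of the 22 proteins the highest row held over 75% of the sum. In 13 of the 22, L9 and L23a among them, at least 1 row was steadier than the sum. RPL9 held 76.0% of the L9 sum, and its SD was 0.18 against 0.19 for the sum. In the other 9 every row was more variable than the sum. The steadiest row exceeded the sum by little in S13 (SD 0.2437 against 0.2436), L10a (0.2483 against 0.2472) and S4 (0.2701 against 0.2688). The widest gap was in S15a, where the highest row held 41.9% of the sum and the steadiest of 5 rows had an SD of 0.34 against 0.13 for the sum. A copy with 1 exon was the highest row of 4 of these proteins, L30, L37a, S15a and S3a. All rows of L30, the row with the RefSeq symbol RPL30 among them, and of L37a have 1 exon, so no row with introns was compared there.

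**Figure D5:**
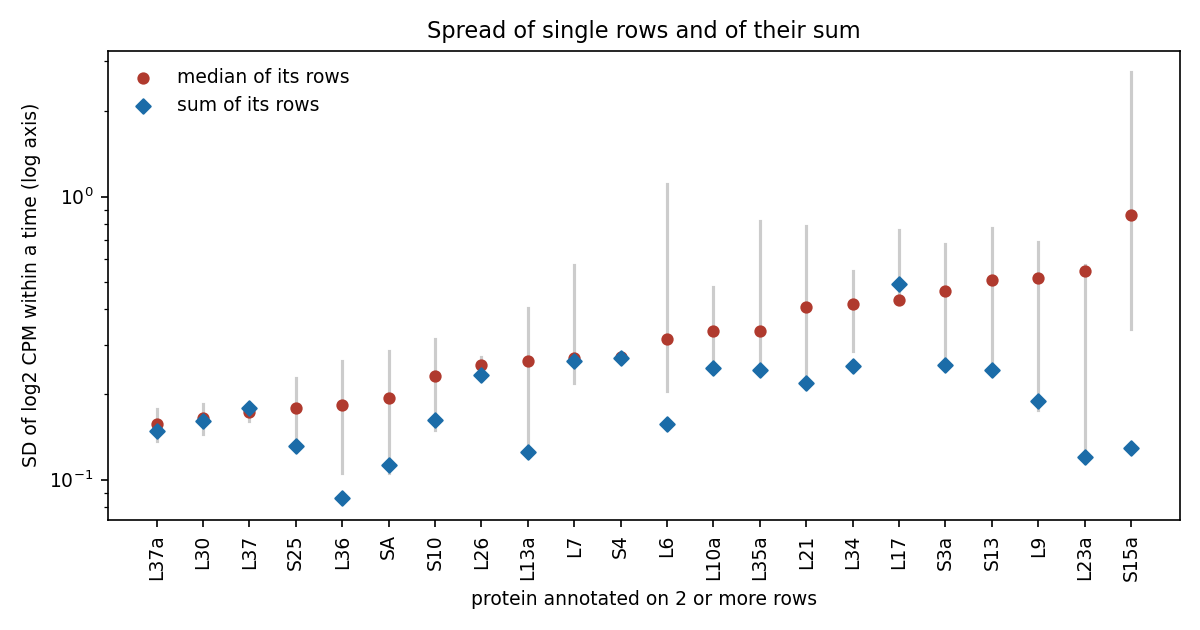
Standard deviation of log2 CPM within a time (log axis) for 22 proteins annotated on 2 or more rows. Circles are the median of a protein's rows, grey lines run from its lowest to its highest row, and diamonds are the sum of its rows. The diamond lies below the circle in 20 of 22 proteins and below every row of the protein in 9. In S13, L10a and S4 it lies below the lowest row by little.

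Genes that work with the ribosomal proteins were set beside them. Of 18 tested elongation factors and other genes whose mRNAs carry the terminal oligopyrimidine tract of ribosomal protein mRNAs, none was called by edgeR at any time, and 0 had an unadjusted p under 0.05. Their median log2 differences were -0.00, 0.01 and 0.02. HNRNPA1 differed by 0.38 ± 0.39 at 3.5 h and 0.49 ± 0.39 at 5.5 h, and PABPC4 by 0.21 ± 0.10 at 1.5 h. Of 29 ribosome biogenesis factors none was called, with medians of -0.01, 0.07 and 0.07. RRP9, a factor of U3 RNA processing, differed by 0.31 ± 0.15 at 3.5 h, and RIOK2, a kinase of 40S maturation, by 0.21 ± 0.11 at both 3.5 and 5.5 h. Of 13 regulators of ribosomal protein mRNA translation none was called, with medians of -0.01, -0.01 and -0.02. EIF4EBP1, one of these regulators, differed by -0.23 ± 0.11 at 3.5 h and -0.24 ± 0.11 at 5.5 h. Of 64 mitochondrial ribosomal proteins none was called by edgeR, with 1, 1 and 3 at an unadjusted p under 0.05 and medians of 0.05, 0.02 and 0.03. DESeq2, with or without the block, called none of the genes in these 4 lists either, and edgeR gave none of the biogenesis factors and regulators an unadjusted p under 0.05.

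The authors' deposited table of comparisons marks 123, 59 and 46 of 18340 rows as significant at 1.5, 3.5 and 5.5 h, which is 0.671%, 0.322% and 0.251%. Of the 76 rows, the authors' deposited table marks 0, 3 and 2, all of them copies and all higher than at 0 h. The authors' deposited table gives the chromosome 9 L9 copy a ratio of 3.88 at 3.5 h (q = 9.08e-06) and 5.48 at 5.5 h (q = 3.82e-07). For the chromosome 4 L9 copy the authors' deposited table gives 2.07 (q = 0.0642) and 2.41 (q = 0.0243). The L21-like copy is marked at 3.5 h with a ratio of 2.41 and q = 1.00 in the authors' deposited table. The Ribosome pathway has p = 0.720 at 1.5 h and p = 0.514 at 5.5 h in the authors' deposited table of pathways, from 1 listed gene each.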

How the data were processed

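RNA-seq of 12 libraries was used as deposited. Per the submitters' processing notes, TopHat2 2.0.9 and Cufflinks were used; the labels and headers state neither the counting tool, its handling of reads that match several genes and its strand setting, nor the genome build. The deposited gene table holds raw counts per gene and FPKM values, per the file headers. The authors' deposited comparison tables give a ratio (fold change), its log2, p-values and q-values, and a transcript table gives exon numbers and lengths. In the deposited files, 42 further per-sample count and FPKM columns belong to no sample listed here and were not used.

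Rows with a mean FPKM of at least 1 (12025 of 18340) were fitted with edgeR 4.0.16 (TMM scaling, quasi-likelihood test, R 4.3.3) over all 12 libraries, with Benjamini-Hochberg adjustment over these rows and a threshold of 0.05. CPM values use TMM library sizes. SE is the log2 difference divided by the root of F. Alternatives were RLE and upper quartile scaling, other FPKM filters, DESeq2 1.42.0, limma 3.58.1 on log2(FPKM + 1) and log2(FPKM + 0.1), the replicate number as a block, summed rows, and leaving out each library. Shares were compared by exact permutation tests (scipy 1.17.1). The scripts were tested on simulated data.

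The members and lists were chosen with earlier results of these data known. Genes were named by a rule: the 5 highest named genes and copies, the 5 lowest named genes, all L9 and L7 copies, paralogues, stalk genes and some further genes with known roles, the 3 named genes and 3 copies with the smallest p in each comparison, and the 3 most variable rows. Other rows named were chosen after their values were seen, and some that the rule names are not reported here.

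Same-numbered libraries deviated together from their group means (r = 0.218 to 0.705 in 18 pairs, with all above 0.1), and the pairing comes from this check, since the labels do not explain the numbers. Within each group, replicates differed by more than sampling noise (chi-square per degree of freedom of 40.2 or more). No sequences are shown, because no genome or sequence table was used here.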

Additional observations from a re-analysis of the deposited data

Results flagged for a closer look

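In 6 of the 76 rows, all 3 libraries of one time lay above their same-numbered 0 h libraries and all 3 of another time lay below them, where 2.3% of all 12025 rows did so. The difference between the times was not tested, and the times share their 0 h libraries. The L9 copy ENSOARG00000001382 had log2 differences of -0.25 at 1.5 h, 1.07 at 3.5 h and 1.28 at 5.5 h. The L7-like copy ENSOARG00000010153 had -0.26 at 1.5 h and 0.74 at 3.5 h. The S27-like copy ENSOARG00000010977 had 0.27 at 3.5 h and -0.18 at 5.5 h, and the L21-like copy ENSOARG00000003761 had 0.15 and -0.20 at these times. In 2 rows the differences were smaller: RPL26L1 had -0.067 at 1.5 h and 0.085 at 5.5 h, and the L10a row with 5 exons (ENSOARG00000011986) had -0.013 at 3.5 h and 0.071 at 5.5 h. Groups of 3 libraries were not searched for single libraries that stand apart.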

How the results depend on the processing

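In each comparison with 0 h, edgeR's 0 called rows stayed 0 with RLE or upper quartile scaling, with either other FPKM filter, and in limma, and no summed protein was called. DESeq2 called 1, 6 and 7 genes at 1.5, 3.5 and 5.5 h, of which 0, 2 and 2 were ribosomal protein rows. The replicate block gave edgeR 1 gene at 1.5 h and 2 genes among the 4 times, and with the replicate block DESeq2 called 96, 34 and 32 genes, of which 0, 1 and 3 were ribosomal protein rows. Leaving out one library gave 0 to 1 genes at 1.5 h (1 without 1.5 h library 3) and 0 to 1 at 5.5 h (1 without 5.5 h library 1). Replicates 1 and 2 alone, chosen after seeing the data, gave 1 gene at 5.5 h. The medians of named genes and copies moved by less than their spread between libraries in every alternative run, but their sign was not stable. With one library left out the named median ranged from -0.0016 to 0.16 at 1.5 h, -0.038 to 0.044 at 3.5 h and -0.027 to 0.098 at 5.5 h. The copy median ranged from -0.036 to 0.19, -0.0065 to 0.19 and -0.089 to 0.17, the lowest at 3.5 and 5.5 h without that time's library 3. In limma the copy median at 1.5 h was -0.0069 or -0.0082, by pseudocount, and in replicates 1 and 2 alone the named median at 3.5 h was 0.0095.

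Some small differences changed sign. For ENSOARG00000000241 at 1.5 h the log2 difference was -0.0069 in limma with either pseudocount, -0.065 in replicates 1 and 2 alone, and -0.16 to 0.14 with one library left out. In replicates 1 and 2 alone ENSOARG00000004949 had -0.27 at 3.5 h and 0.11 at 5.5 h, ENSOARG00000004114 had -0.023 at 5.5 h and ENSOARG00000016008 had -0.12 at 5.5 h. With one library left out, ENSOARG00000004114 ranged from -0.0057 to 0.24 at 1.5 h and from -0.080 to 0.23 at 5.5 h, and ENSOARG00000016008 from -0.045 to 0.38 and from -0.36 to 0.36. ENSOARG00000004949 ranged from -0.38 to 0.74 at 3.5 h. The share of counts in ribosomal protein rows then differed from 0 h by -0.0351 to 0.168 percentage points at 1.5 h, -0.115 to 0.0452 at 3.5 h and -0.0681 to 0.144 at 5.5 h. The copy share differed by -0.847 to 0.292, -0.854 to 1.03 and -0.842 to 1.32 percentage points. The cause was not tested. The differences of ENSOARG00000000241, ENSOARG00000020156 and ENSOARG00000001382 at 3.5 and 5.5 h kept their sign in each alternative run.

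With 3 libraries a time, the unblocked fit cannot separate small differences from the spread between numbers. Rows with few counts, such as the S13-like row with 12 to 83 reads a library, are the least precise. How reads that match several rows were counted is not stated, and its part in the values of single copies was not tested.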
